A study of Mus musculus with 6 samples.

Results

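The genes described here are 10 genes of MHC class I presentation (B2m, H2-D1, H2-K1, H2-T23, H2-M3, Tap1, Tap2, Tapbp, Erap1 and Nlrc5). They were chosen by name for their role, each is a row whose gene symbol is exactly that name, and all 10 are among the 19225 genes listed. They were measured in CD11b+ cells enriched from the brains of stress-naïve male mice, 3 labelled Cnr1+/+ and 3 labelled Cnr1-/-, with 1 library per mouse sequenced from the 3′ ends of its polyadenylated transcripts. The Cnr1-/- mice carry the constitutive allele Cnr1 tm1Zim (genotype d/d in the labels), so that cannabinoid receptor 1 (CB1) is missing from all cells and not only from microglia. The Cnr1+/+ mice are given as wt/wt on C57BL6/J in the labels and as littermates in the methods. The age is 3 months per the labels and somewhat younger per the methods. All mice were perfused with PBS, and the cells were taken with CD11b magnetic beads after myelin was removed on Percoll. The series asks how microglia differ between the genotypes in the absence of stress.

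MHC class I molecules present peptides from inside the cell to CD8+ T cells and natural killer cells. A class I molecule is a heavy chain held at the surface by beta-2-microglobulin, and its peptide is cut by the proteasome, carried into the endoplasmic reticulum by the transporter TAP, trimmed there and loaded with the help of tapasin. Nlrc5 drives transcription of most of these genes from a shared promoter module, and interferons raise the whole pathway. Microglia at rest are known for low surface class I, which rises in inflammation.

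None of the 10 genes passed the thresholds of the study for a difference between the genotype labels, and 3 of them were too low to be tested with the rest. With limma, 0 of the 7 genes that could be tested had a nominal p under 0.05, where 6.02% of all 6659 tested genes did, and 0 passed the adjusted threshold (below 0.1, together with a change of over 1.5-fold), where 0.0901% of all tested genes did. The log2 fold changes of 4 lay above 0 and those of 3 below. Their median log2 fold change was 0.08, beside 0.08 over all tested genes, of which 68.45% were above 0. Centring on library medians, quantile normalisation and a rescaling that leaves out mitochondrially encoded genes lowered that all-gene median to 0.01, 0.00 and −0.02, and the median of the 7 genes to 0.01, 0.01 and −0.02. Groups of libraries did not overlap for 3 of the 7 genes. In 1 of them, the classical heavy chain H2-K1, the libraries labelled Cnr1-/- were lower, where 2.13% of all tested genes had groups apart in that direction. In Tap2, a subunit of the TAP transporter, and Tapbp, which encodes tapasin, they were higher, where 8.85% of all tested genes had groups apart in that direction.

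The depth of the libraries corresponded to 7708802 to 10723822 reads. A value of 0 allows up to 3 reads, which is 0.280 to 0.389 cpm, the unit of the values, which the authors scaled with TMM. The listed genes did not add up to the full cpm total. Their sum was 50.1, 54.1 and 54.3% of it in the libraries labelled Cnr1+/+ and 53.5, 59.1 and 58.1% in those labelled Cnr1-/-. These shares overlapped, and their part in the all-gene median was not tested. All 12 microglia identity genes were listed and their summed level was 17196 to 20039 cpm in the libraries labelled Cnr1+/+ and 18312 to 19523 cpm in those labelled Cnr1-/-. Lymphocyte markers were listed for 2 of 10 genes, with 5.29 to 9.99 cpm against 6.44 to 9.51 cpm. The library labelled Cnr1-/- replicate 2 stood apart. The 9 listed neutrophil genes had a sum of 4067 cpm there and of 266 to 524 cpm in the remaining 5 libraries, and its 6 erythrocyte genes to 2334 cpm, against 136 to 237 cpm elsewhere. It was the highest library for 4 of the 10 class I genes (B2m, H2-T23, Tap2 and Erap1) and the lowest for 2 (H2-K1 and Nlrc5). Without it, again 0 of the 7 tested genes had a limma nominal p under 0.05, and their median log2 fold change was −0.02 beside 0.04 over all tested genes. Cnr1 itself was listed at 0 cpm in the libraries labelled Cnr1+/+ and at 1.41, 1.21 and 1.79 cpm in those labelled Cnr1-/-. Reads of the targeted gene were thus found only under the label of the mice that lack the receptor. Whether the labels are right was not tested. Per the methods the mice were genotyped by PCR and the allele is a neomycin cassette set into the coding region, and microglia are known to hold little Cnr1, but where the tags lie relative to the cassette was not examined. All directions are therefore given by the labels, and each would turn if the labels were exchanged. In RNA from a whole enriched fraction, fewer cells of a type and less RNA per cell cannot be told apart.

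Of the 10 genes, 7 lie on chromosome 17, 6 of them with a promoter window in RefSeq (GRCm38.p6), and 8 genes (all but Tap2 and Nlrc5) had one in all. The windows of H2-K1, H2-D1, H2-M3 and B2m are shown for the heavy chains and the light chain in which both the X2 core and the Y box, parts of the class I promoter module, were found. Tap1 also holds both, but its CCAAT letters (222 bases before the start site) precede its TGACG letters (86 bases before it). In each window shown, CCAAT letters on either strand follow TGACG letters. Each runs from 250 bases before the start site to 50 bases after it, 5′ to 3′ on the gene's strand, at chr17:34000298-34000597 (minus strand), chr17:35262844-35263143 (plus), chr17:37269984-37270283 (plus) and chr2:122147437-122147736 (plus). Capitals mark the letters searched for on both strands. They were TGACG (the core of the X2 box), CCAAT (the Y box), GAAANNGAA (a spelling of the core of the interferon-stimulated response element) and GGGGATTCC (a kappa B site). Other spellings of that core were not searched, so a window without this match may still hold such an element. No 2 of the matches marked in these 4 windows overlap.
H2-K1: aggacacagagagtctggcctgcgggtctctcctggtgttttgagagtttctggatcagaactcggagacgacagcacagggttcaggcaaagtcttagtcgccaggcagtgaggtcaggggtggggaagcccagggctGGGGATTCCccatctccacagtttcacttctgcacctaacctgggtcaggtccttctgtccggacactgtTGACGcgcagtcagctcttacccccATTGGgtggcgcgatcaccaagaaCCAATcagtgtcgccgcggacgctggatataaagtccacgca
H2-D1: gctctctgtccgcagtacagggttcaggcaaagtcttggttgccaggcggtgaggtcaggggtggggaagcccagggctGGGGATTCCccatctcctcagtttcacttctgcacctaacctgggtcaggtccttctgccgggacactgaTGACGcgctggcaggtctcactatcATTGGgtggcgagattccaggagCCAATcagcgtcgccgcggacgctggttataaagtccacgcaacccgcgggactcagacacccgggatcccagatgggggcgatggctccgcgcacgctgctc
H2-M3: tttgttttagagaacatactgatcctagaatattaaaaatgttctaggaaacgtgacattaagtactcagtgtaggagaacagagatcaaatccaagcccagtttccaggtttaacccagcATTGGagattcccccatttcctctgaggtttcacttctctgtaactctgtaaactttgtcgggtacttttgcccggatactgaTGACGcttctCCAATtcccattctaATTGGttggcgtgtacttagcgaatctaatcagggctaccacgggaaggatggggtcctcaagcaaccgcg
B2m: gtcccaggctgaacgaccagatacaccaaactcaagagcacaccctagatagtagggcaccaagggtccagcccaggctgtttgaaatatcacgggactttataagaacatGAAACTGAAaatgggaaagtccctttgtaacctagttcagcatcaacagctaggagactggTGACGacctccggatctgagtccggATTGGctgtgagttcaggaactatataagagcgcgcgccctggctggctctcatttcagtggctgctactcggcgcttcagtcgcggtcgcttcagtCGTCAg

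The letters TGACG stood in 5 of the 8 windows (B2m, H2-D1, H2-K1, H2-M3 and Tap1), where 20.8% of 32851 promoter windows of the same length hold them. Each of these 5 also held CCAAT, and 7.73% of all windows hold both. Of all windows, 37.4% hold CCAAT, 8.56% hold the letters GAAANNGAA and 0.2496% hold the kappa B letters, against 7, 3 and 2 of the 8 windows. The kappa B letters were found for H2-K1 and H2-D1, 111 and 171 bases before the start site of the window shown (a further window is listed for H2-K1). Of the 32851 windows, 8 hold the X2 core, the Y box and the kappa B letters together, and these 8 include the windows shown of H2-K1 and H2-D1. The letters were chosen as elements known from class I promoters, so their rarity elsewhere is no independent result. The windows of H2-K1 and H2-D1 were 90.4% identical over 228 aligned columns, whereas that of H2-M3 was 66.0% identical to the former and 67.5% to the latter. A match of letters is a description and not a site shown to be bound.

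B2m (chromosome 2, 122147686 to 122153083, plus strand, mm10) encodes beta-2-microglobulin, the light chain shared by all class I molecules. It was the most abundant of the 10 and ranked 36 among all listed genes by mean level. Reads of this method come from the transcript's end, so levels were not divided by transcript length. The libraries labelled Cnr1+/+ held 1155, 889 and 1087 cpm of B2m, against 1026, 1156 and 1135 cpm in those labelled Cnr1-/-. The groups overlapped, and the lowest value was that of Cnr1+/+ replicate 2. The log2 fold change was 0.09 with a 95% confidence interval of −0.16 to 0.34 (limma adjusted p = 0.953), which is 0.893-fold to 1.27-fold.

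**Figure D1:**
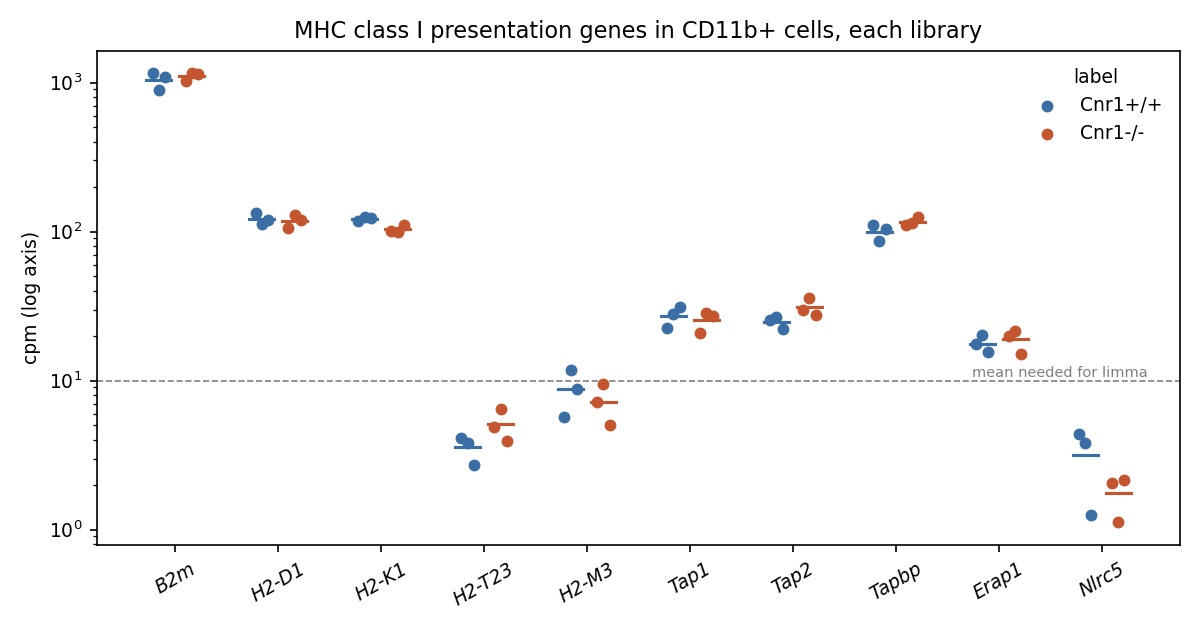
Level of each of the 10 class I genes in cpm (vertical log axis) in the 3 libraries labelled Cnr1+/+ (blue) and the 3 labelled Cnr1-/- (orange); short lines are group means and the dashed line is the mean of 10 cpm needed for testing. B2m lies near 1000 cpm, the classical heavy chains and Tapbp near 100 cpm, and H2-T23, H2-M3 and Nlrc5 below the dashed line on average.

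H2-D1 and H2-K1 encode the classical heavy chains, which carry peptide to CD8+ T cells. H2-K1 (chromosome 17, 33996017 to 34000347, minus strand) measured 117, 126 and 124 cpm under the label Cnr1+/+ and 101, 99.2 and 111 cpm under Cnr1-/-. All 3 values labelled Cnr1-/- lay below all 3 labelled Cnr1+/+, with means of 104 ± 6.49 cpm and 122 ± 4.61 cpm (SD, n = 3 each). The fitted level under Cnr1-/- was 0.850-fold that under Cnr1+/+, with a 95% confidence interval of 0.710 to 1.02. The log2 fold change was −0.23 (SE 0.126), with a limma nominal p of 0.0734, an adjusted p of 0.839 and an exact permutation p of 0.1, the smallest that 3 libraries against 3 allow. Each library held between 903 and 1263 reads of H2-K1, so counting error was about 3.12% of a value.

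The call on H2-K1 depended on the scaling between libraries. Median centring, quantile normalisation and rescaling without mitochondrial genes gave log2 fold changes of −0.31, −0.32 and −0.34 with limma nominal p of 0.00934, 0.00804 and 0.00523, and a fit without shrinkage of the variances gave a nominal p of 0.0174. No adjusted p was under 0.607. The estimate was below 0 in 17 of 17 alternative settings, between −0.34 and −0.20, and it was −0.20 without the library labelled Cnr1-/- replicate 2.

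**Figure D2:**
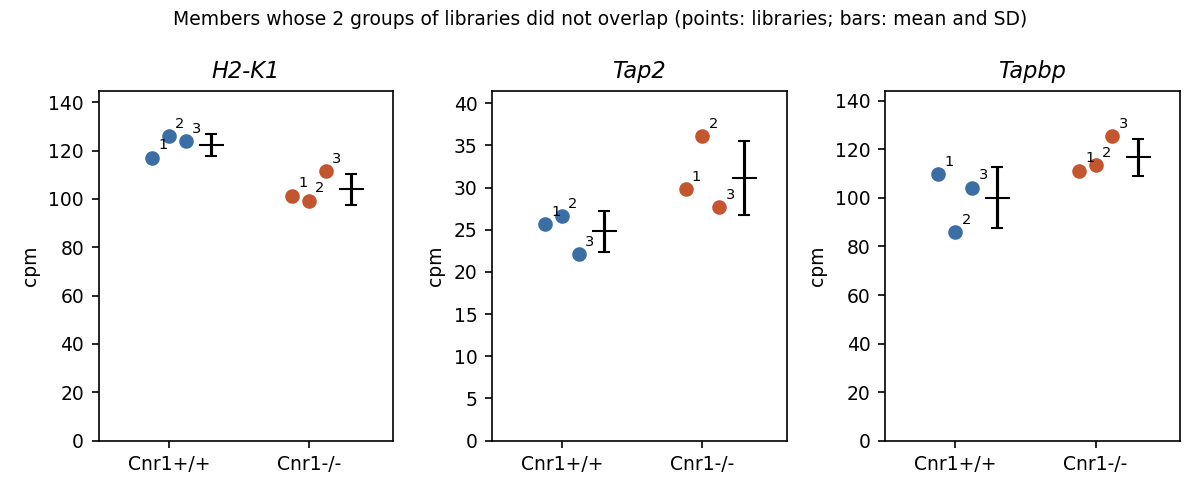
Level in cpm (vertical axes from 0) of H2-K1, Tap2 and Tapbp in each library, numbered by replicate, with the group mean and SD (n = 3) at the side. The libraries labelled Cnr1-/- lie between 99.2 and 111 cpm for H2-K1, below all of those labelled Cnr1+/+, and above all of them for Tap2 and Tapbp.

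H2-D1 (chromosome 17, 35262730 to 35267499, plus strand) measured 132, 113 and 120 cpm under Cnr1+/+ and 105, 129 and 120 cpm under Cnr1-/-. The groups overlapped throughout, and the highest and the lowest of the 6 values had different labels. The log2 fold change was −0.05 with a 95% confidence interval of −0.31 to 0.22 (limma adjusted p = 0.977), and it was −0.16 to −0.12 under the 3 other scalings. In the last 300 bases of their transcripts, 13.5% of the 50-base words of H2-D1 and 9.54% of those of H2-K1 also occur in other genes, for each more often in the other heavy chain than in any further gene, so a part of their reads was divided by estimation. The sum of both genes does not depend on that division between them. It was 249, 239 and 244 cpm in the libraries labelled Cnr1+/+ and 206, 228 and 232 cpm in those labelled Cnr1-/-, which did not overlap. This sum is no separate result, since it holds H2-K1, whose groups were apart, whereas those of H2-D1 alone overlapped. How often sums of other gene pairs lie apart was not examined. Some end words also occur in further genes, so the sum still depends on a division with those. Within a library, H2-K1 over H2-D1 was 0.886, 1.12 and 1.03 against 0.966, 0.772 and 0.925, and these ratios overlapped.

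H2-T23 and H2-M3 encode non-classical heavy chains. H2-T23, the mouse Qa-1 molecule, presents leader peptides of other class I chains to natural killer cells, and H2-M3 presents formylated peptides. H2-T23 (chromosome 17, 36029773 to 36032855, minus strand) measured 4.15, 3.83 and 2.73 cpm under Cnr1+/+ and 4.89, 6.43 and 3.94 cpm under Cnr1-/-. The groups overlapped through the lowest value labelled Cnr1-/-, and the exact permutation p was 0.2. Of its 50-base end words, 50.6% also occur in 75 other genes, and a gene on the opposite strand (A930015D03Rik) overlaps it. H2-M3 (chromosome 17, 37270220 to 37274484, plus strand) had 5.71, 11.8 and 8.83 cpm against 7.15, 9.42 and 5.01 cpm, with broad overlap and an exact permutation p of 0.6. Both genes had means below 10 cpm and were not tested with the other genes. Fitted without that filter, their log2 fold changes were 0.49 (95% confidence interval −0.37 to 1.35) and −0.27 (−0.93 to 0.40), which are 0.775-fold to 2.55-fold and 0.523-fold to 1.32-fold. They rested on 26 to 69 and 42 to 118 reads per library. For H2-M3 the spread between libraries (a coefficient of variation of 34.6% under Cnr1+/+ and 30.7% under Cnr1-/-) was larger than its counting error of 12.4%. The same held for H2-T23 (20.8% and 24.8% against 16.5%) and for Nlrc5 (52.9% and 32.1% against 23.5%). This spread also includes differences between mice.

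Tap1 and Tap2 encode the subunits of the peptide transporter and are neighbours on chromosome 17 (34187553 to 34197225 and 34203527 to 34216321, both on the plus strand). Tap2 measured 25.7, 26.6 and 22.1 cpm under Cnr1+/+ and 29.8, 36.1 and 27.7 cpm under Cnr1-/-. The 3 values labelled Cnr1-/- lay above the others, the highest of them in replicate 2, the library with the high neutrophil and erythrocyte genes. The log2 fold change of Tap2 was 0.32 with a 95% confidence interval of −0.05 to 0.70 (limma nominal p = 0.0875, adjusted p = 0.839, exact permutation p = 0.1). The estimate was above 0 in 17 of 17 alternative settings, and it was 0.21 when Cnr1-/- replicate 2 was left out.

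Tap1 did not share this order. It measured 22.6, 28.0 and 31.3 cpm under Cnr1+/+ and 21.0, 28.4 and 27.1 cpm under Cnr1-/-, and the groups overlapped. Its log2 fold change was −0.10 with a 95% confidence interval of −0.49 to 0.30 (limma adjusted p = 0.963), and it was −0.21 to −0.17 under the 3 other scalings. The ratio of Tap2 over Tap1 within a library was 1.14, 0.9502 and 0.705 against 1.42, 1.27 and 1.02, which overlapped. Reads of Tap1 may be shared with Tap2 over 4.92% of its end words, and Psmb9 overlaps Tap1 on the opposite strand.

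Tapbp (chromosome 17, 33915899 to 33929292, plus strand) encodes tapasin, which holds empty class I molecules at TAP until a peptide binds. It overlaps Zbtb22 on the same strand and shares 5.07% of its end words with it. It measured 110, 86.0 and 104 cpm under Cnr1+/+ and 111, 113 and 125 cpm under Cnr1-/-. The groups did not overlap, but the gap between them was 1.14%, against 3.86% for Tap2 and 5.16% for H2-K1. The log2 fold change was 0.23 with a 95% confidence interval of −0.05 to 0.50 (limma nominal p = 0.0993, adjusted p = 0.839, exact permutation p = 0.1). Leaving out Cnr1+/+ replicate 1, the estimate was 0.30 and the limma nominal p was 0.0395. Leaving out Cnr1+/+ replicate 2, which held the lowest value, gave 0.12, at a limma nominal p of 0.397. The 3 other scalings gave 0.12 to 0.15. Relative to B2m in the same library, which removes any scaling between libraries, Tapbp was 0.0960 ± 0.000773 in the libraries labelled Cnr1+/+ and 0.106 ± 0.00662 in those labelled Cnr1-/- (SD, n = 3 each), without overlap. The highest ratio under Cnr1+/+ was 0.0968 and the lowest under Cnr1-/- was 0.0981. Counting error was about 3.19% of a value for Tapbp and 1.01% for B2m. The SD under Cnr1+/+ was smaller than that error, so it understates the uncertainty of these ratios. H2-K1 relative to B2m was 0.119 ± 0.0206 and 0.0943 ± 0.00728, also without overlap and in the opposite direction. Of the 6 tested class I genes besides B2m, 1 (Tapbp) had a higher and 1 (H2-K1) a lower ratio to B2m without overlap, where 2.73% and 3.69% of all tested genes besides B2m did. H2-D1 over B2m was 0.115, 0.127 and 0.111 against 0.102, 0.111 and 0.106, and these ratios overlapped.

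**Figure D3:**
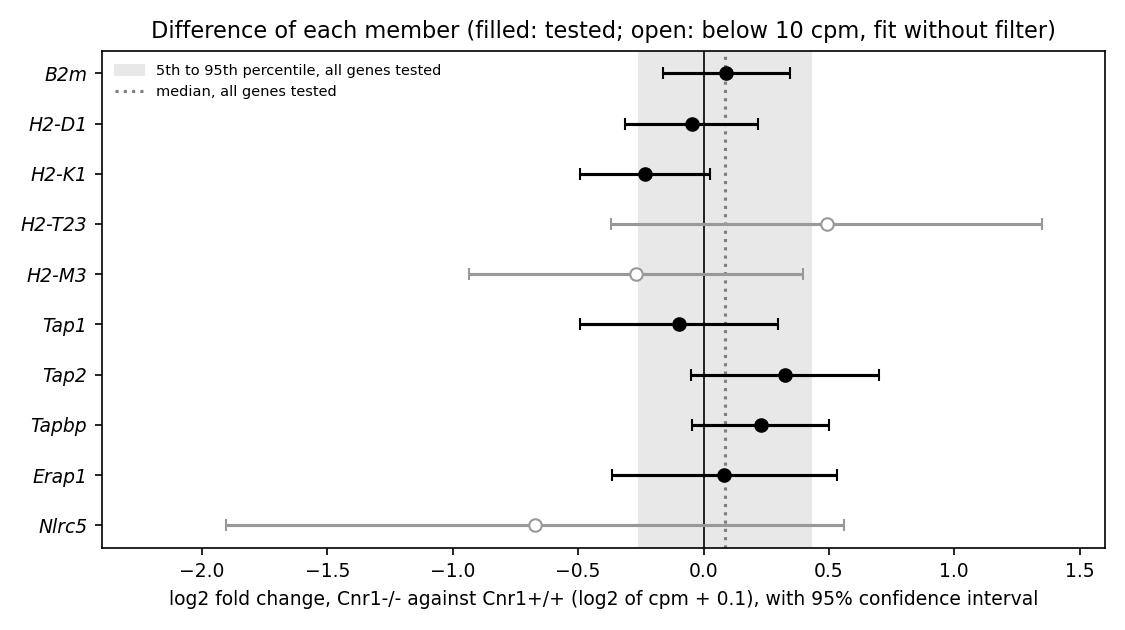
Log2 fold change (horizontal axis, log2 of cpm + 0.1, Cnr1-/- against Cnr1+/+) of each class I gene with its 95% confidence interval; filled points were tested with limma and open points are genes below a mean of 10 cpm fitted without the filter. The grey band spans the 5th to the 95th percentile of all 6659 tested genes and the dotted line is their median of 0.08, and all 10 intervals include 0.

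Erap1 (chromosome 13, 74639568 to 74693201, plus strand) encodes the aminopeptidase that trims peptides in the endoplasmic reticulum. It measured 17.5, 20.3 and 15.5 cpm under Cnr1+/+ and 20.03, 21.6 and 15.0 cpm under Cnr1-/-, and the highest and the lowest value were both labelled Cnr1-/-. The log2 fold change was 0.08 with a 95% confidence interval of −0.37 to 0.53 (limma adjusted p = 0.977). Nlrc5 (chromosome 8, 94434356 to 94527272, plus strand), the transactivator, was the least abundant of the 10, at 4.41, 3.79 and 1.26 cpm against 2.06, 1.12 and 2.15 cpm. The groups overlapped, the exact permutation p was 0.3, and each value rested on 12 to 38 reads. Its log2 fold change without the filter was −0.67, with a 95% confidence interval from −1.90 to 0.56.

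The 10 levels formed 4 steps whose ranges over the 6 libraries did not overlap. B2m lay above all others. H2-D1, H2-K1 and Tapbp followed, with ranges that overlapped each other. Below them, Tap1 overlapped both Tap2 and Erap1, whereas Erap1 lay below Tap2 in every library. H2-M3, H2-T23 and Nlrc5 came last. H2-T23 overlapped both of the other genes, and H2-M3 lay above Nlrc5.

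The pattern over libraries was also described by averaging the 7 tested genes after centring each on its own mean. This average was highest in the library labelled Cnr1-/- replicate 2, at 0.123 on the log2 scale, and lowest in replicate 1 of the same label, at −0.0605. The 5 tested genes most like it were Fkbp2, Cd52, Actg1, Eif3j2 and Atp13a2, with Pearson r of 0.994, 0.982, 0.977, 0.970 and 0.969 over 6 libraries. They were picked as the highest r among all tested genes, over points that share scaling, and are given without a test. Cd52, a surface glycoprotein of leukocytes, had 62.1, 56.5 and 54.1 cpm against 51.3, 85.8 and 64.6 cpm. Its highest value in Cnr1-/- replicate 2 follows from how it was picked.

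Of 54 other genes of the class I pathway, 48 were listed and 31 were tested. With limma, 1 of the 31 was higher at a nominal p under 0.05 and 0 were lower, beside 6.02% of all tested genes in either direction. The median log2 fold change was 0.06, and 23 lay above and 8 below 0, where 68.45% of all tested genes lay above. That 1 gene was Psme2, a subunit of the PA28 activator of the proteasome, with 3.76, 11.9 and 34.4 cpm under Cnr1+/+ and 27.9, 23.03 and 29.0 cpm under Cnr1-/-. The groups overlapped, since Cnr1+/+ replicate 3 was the highest of the 6. Its log2 fold change was 1.19 (SE 0.411, limma adjusted p = 0.655). Without Cnr1+/+ replicate 3 it was 1.97 with a limma adjusted p of 0.00572, and without Cnr1+/+ replicate 1 it was 0.39 with an adjusted p of 0.974. Of the end words of Psme2, 58.8% are also found in Psme2b and Gm7928. Psme2 and Psme2b summed to 64.5, 84.1 and 90.8 cpm against 83.7, 89.5 and 89.9 cpm, which overlapped.

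Among 5 other loading factors, all tested, 3 lay above 0 and 2 below. Calr, the chaperone calreticulin, was the most abundant at 494, 582 and 605 cpm against 540, 597 and 673 cpm. Tapbpl, a tapasin-related editor of the bound peptide, measured 24.1, 26.7 and 23.7 cpm under Cnr1+/+ and 29.3, 37.4 and 29.1 cpm under Cnr1-/-. It was the only 1 of the 31 whose groups did not overlap, where 8.85% of all tested genes had groups apart in that direction, and it was named after its values were seen. For Tapbpl limma gave a log2 fold change of 0.35 with an adjusted p of 0.829. Among 12 genes of peptide supply and trimming, 11 were tested, 8 above and 3 below 0. Psmb8, a subunit of the immunoproteasome, was the most abundant at 46.6, 50.6 and 54.9 cpm against 47.5, 53.7 and 56.6 cpm.

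Among 15 genes of transcription and interferon-gamma signalling, 12 were tested, and 11 lay above and 1 below 0, with a median log2 fold change of 0.10 beside 0.08 over all tested genes. Ifngr1, a chain of the interferon-gamma receptor, was the most abundant at 338, 436 and 530 cpm against 408, 436 and 402 cpm. Of the 17 other heavy chains and heavy chain-like genes, 13 were listed and 2 were tested, both below 0 without a nominal p under 0.05. Hfe, whose product takes part in iron regulation, was the most abundant of these. Of 5 receptors that bind class I, 3 were listed and 1 was tested. This was Pirb, an inhibitory receptor of myeloid cells, at 13.8, 11.5 and 13.9 cpm against 14.3, 13.4 and 14.1 cpm.

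**Figure D4:**
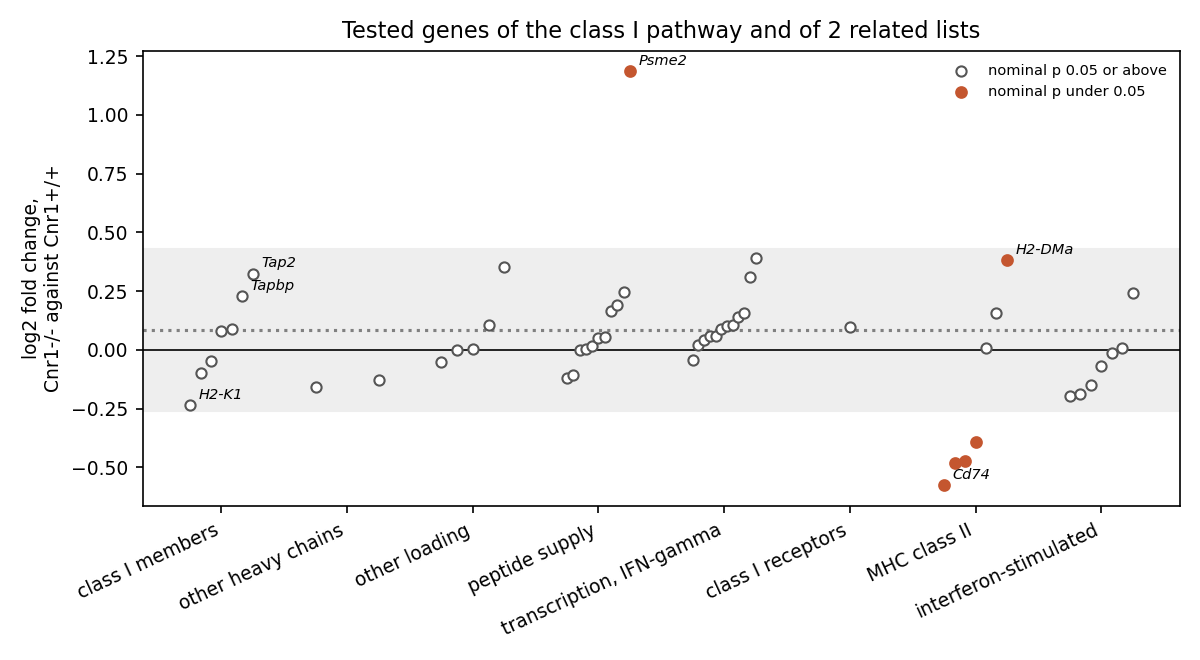
Log2 fold change (vertical axis, Cnr1-/- against Cnr1+/+) of the tested genes of the class I list, 5 further roles of the pathway, MHC class II presentation and interferon-stimulated genes; filled points had a limma nominal p under 0.05, the grey band spans the 5th to the 95th percentile of all tested genes and the dotted line is their median. In the class I pathway only Psme2 is filled, whereas 4 filled class II genes lie below 0 and H2-DMa lies above.

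Genes of MHC class II presentation, which serve CD4+ T cells, are the nearest list. Of its 10 listed genes 7 were tested, of which 4 were lower (Cd74, H2-Aa, H2-Ab1 and H2-Eb1) and H2-DMa was higher at a limma nominal p under 0.05, and the median log2 fold change was −0.39. Of all 6659 tested genes, 62 were lower and 339 higher at that threshold, 6.02% together, which is also the background of the other counts given beside these. The adjusted p of these 5 class II genes lay between 0.480 and 0.792, and the log2 fold change of H2-DMa was 0.38 with all libraries and 0.34 without Cnr1-/- replicate 2, where it no longer passed. Markers of border-associated macrophages, of which 8 of 8 were listed and 0 were at 0 in every library, summed to 115 to 148 cpm under Cnr1+/+ and 97.6 to 127 cpm under Cnr1-/-. Of these, 6 were tested, 1 (Pf4) was lower at a limma nominal p under 0.05, and their median log2 fold change was −0.27. Their part in the class II values was not tested. Of 24 genes stimulated by type I interferon, 7 were tested and 0 had a nominal p under 0.05, with a median log2 fold change of −0.07. The summed level of these 24 genes was 314, 270 and 330 cpm against 222, 296 and 359 cpm, which overlapped. Differences between the lists themselves were not tested.

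**Figure D5:**
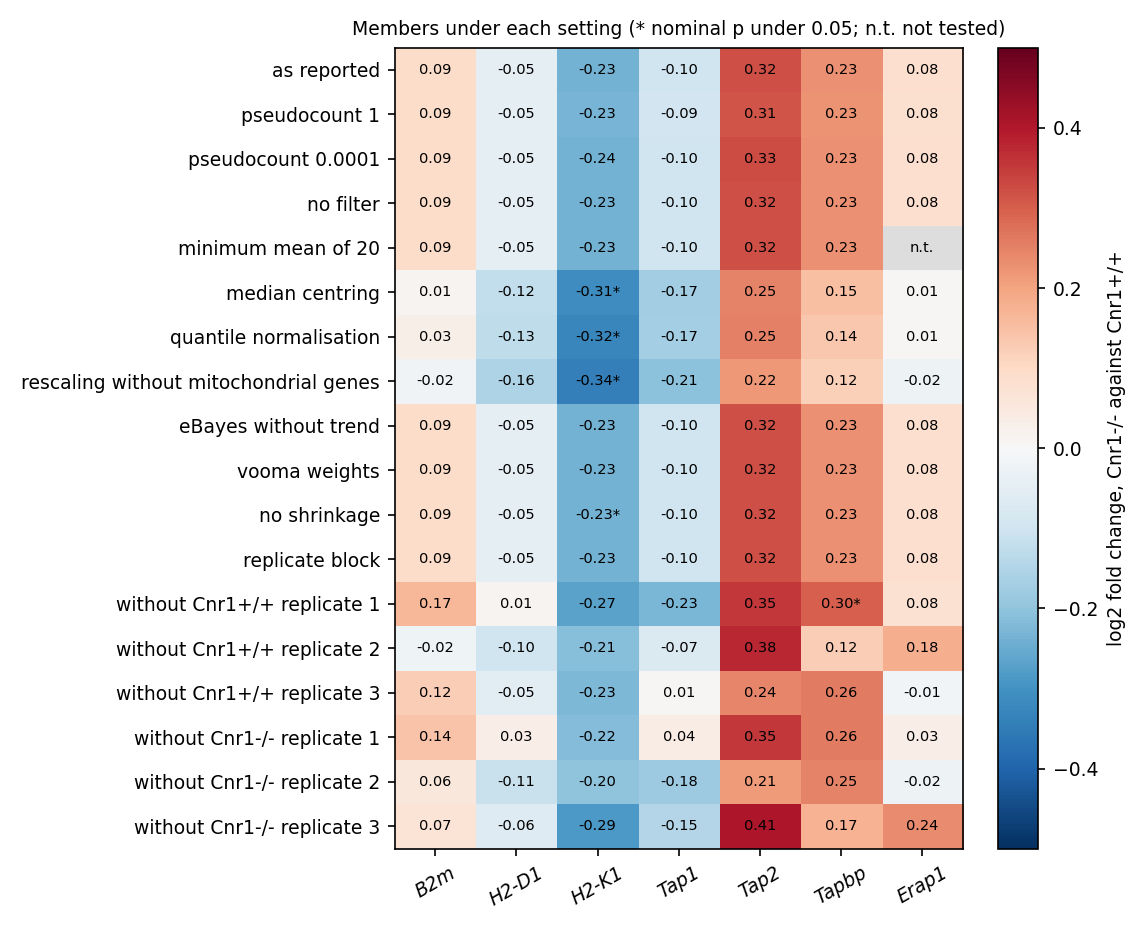
Log2 fold change (colour and printed value, Cnr1-/- against Cnr1+/+) of the 7 tested class I genes as reported (top row) and under each of 17 alternative settings; a star marks a limma nominal p under 0.05. H2-K1 is negative in every row and starred in 4, Tap2 and Tapbp are positive in every row and Tapbp is starred in 1.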

How the data were processed

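CD11b+ cells of 6 mice were profiled with 3′ mRNA sequencing in single 50-base reads. The authors aligned the reads to mm10 with STAR and quantified them against Ensembl transcripts with expectation-maximisation in Partek Flow, which divides shared reads between genes. The deposited values are cpm after TMM normalisation by the authors. Only 83.6% to 85.0% of the values were whole multiples of 1 read (tolerance 0.05 reads), so count tests were not used.

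Groups follow the genotype labels. Values were tested as log2 (cpm + 0.1) with limma 3.58.1 in R 4.3.3 (lmFit, eBayes with trend) where the mean reached 10 cpm, genotype as the only term, Benjamini-Hochberg adjustment over all genes tested, and the thresholds of the study. Fold changes on this scale understate those of low genes. Single genes also had a two-sided exact permutation test. The steps were tested on simulated data. The listed ends are 1 past the last base, so 1 was subtracted. End words were compared in GENCODE vM21 transcripts. The genes and lists were chosen with earlier results of these data known. Named are all 10 genes, pathway genes with a nominal p under 0.05, and the most abundant of each role. Tapbpl was named after its values were seen. Alternatives were other pseudocounts, filters, scalings and variance models, a replicate block and leaving out single libraries.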

Additional observations from a re-analysis of the deposited data

How the results depend on the processing

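Among the 7 tested genes, 1 (H2-K1) had a limma nominal p under 0.05 with median centring, quantile normalisation, rescaling without mitochondrially encoded genes and no shrinkage, and 0 to 1 did with 1 library left out, where the 1 was Tapbp. Their median log2 fold change was 0.00677, 0.00780 and −0.0249 under the 3 scalings, 0.0214 with a minimum mean of 20 (6 genes) and −0.0235 to 0.0772 with 1 library left out. Without a filter all 10 genes could be fitted, 5 above and 5 below 0, with a median of 0.0173. The sign turned for B2m (−0.0173) and Erap1 (−0.0249) with rescaling, and with 1 library left out B2m ranged from −0.0208 to 0.168, H2-D1 from −0.112 to 0.0343, Tap1 from −0.228 to 0.0356 and Erap1 from −0.0235 to 0.238. Of the pathway genes, 0 were called without the trend or without shrinkage and 1 to 3 with 1 library left out. Over all genes, 401 were called as reported, 993 without a filter, 263 with a minimum mean of 20 and 251 to 600 with 1 library left out (251 without Cnr1-/- replicate 2). Of those called, 339 were higher and 62 lower as reported, 197 and 178 with centring, 163 and 197 with quantile normalisation, and 121 and 223 with rescaling. The cause of these shifts was not tested. Replicate numbers did not pair the libraries (correlation of deviations −0.0557, −0.0316 and −0.0308), and with a replicate block 421 genes and 0 of the 7 tested class I genes were called, with a median of 0.08. Counting error was widest for H2-T23, H2-M3 and Nlrc5.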
